A study of Mus musculus with 6 samples.

Results

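The GIMAP family was examined in naive CD8 T cells of WT and CD103KO mice, as the 8 genes Gimap1, Gimap3, Gimap4, Gimap5, Gimap6, Gimap7, Gimap8 and Gimap9. They were chosen by gene symbol from the 55450 genes of the deposited count table, each symbol matched 1 gene, and all 8 were among the 13470 genes with enough counts to be tested. The cells were sorted from lymph nodes as negative for Ly6C and CXCR3, from C57BL/6 mice (WT, 3 samples) and from Itgae-/- mice (CD103KO, 3 samples), which lack the integrin alpha E chain CD103. Every sample was sequenced as a strand-marking mRNA library. The labels do not give age or sex, and nothing in them says that each sample is a different animal. The p-values measure only the spread between these samples. Within WT that spread includes a difference of sex, read from transcripts below, and otherwise it may be technical.

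GIMAP proteins (GTPases of immunity-associated proteins) are guanine nucleotide-binding proteins found mainly in lymphocytes, and several are held in intracellular membranes. They are known for keeping mature lymphocytes alive: loss of Gimap5 depletes naive T cells in mice and rats, and mature T and B cells need Gimap1. Other members are linked to autophagy or to the pace of cell death. Their genes lie side by side on a single chromosome.

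The transcripts of all 8 genes were abundant and differed little between the genotypes. None was called between CD103KO and WT, where 0.223% of all tested genes were, and 0.0817% were lower in CD103KO (edgeR quasi-likelihood test, Benjamini-Hochberg adjusted p under 0.05). Fitted levels in CD103KO were 0.865 to 0.973 times those in WT. The 95% intervals of these ratios reached from 0.778 at the lowest to 1.07 at the highest. DESeq2 also called 0 of the 8, against 0.822% of the genes it gave an adjusted p. At an unadjusted p under 0.05, edgeR gave 3 of the 8, all lower in CD103KO (Gimap7, Gimap9 and Gimap1), against 4.2% of all tested genes lower at that level.

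The libraries held 68292449 to 94347020 counts, and in CPM (counts scaled to library size with TMM factors) 1 count equalled 0.0104 to 0.0147, and the members had 4428 to 56418 counts each. Itgae, the targeted gene, was at 460 to 495 CPM in the WT libraries and 61.1 to 67.9 CPM in the CD103KO libraries. Xist, the RNA of the inactive X chromosome, was at 66.9 CPM in WT replicate 1 and 79.7 CPM in WT replicate 2, while the other 4 libraries had no more than 2 counts of it. Ddx3y, a gene of the Y chromosome, was the reverse, at 0 in WT replicates 1 and 2 and at 47.8 to 56.2 CPM in the other 4, so sex differed within WT and between WT and CD103KO. Markers of CD8 T cells summed to 6709 to 7149 CPM in WT and 6796 to 7073 CPM in CD103KO, with 0 of 8 called. B cell markers, 3 of 8 of them called higher, summed to 2.48 to 3.08 CPM in WT and 7.48 to 12.0 CPM in CD103KO. Red cell and platelet markers, 0 of 4 tested called, summed to 32.6 to 49.2 and 57.0 to 92.0 CPM, with the platelet genes Pf4 and Gp9 at 0. The summed ranges of WT and CD103KO overlapped for markers of myeloid and dendritic cells, NK cells, CD4 T cells, and endothelial and stromal cells. The NK cell sum was mostly Eomes, at a mean of 35.5 CPM in WT against 37.3 in CD103KO. The endothelial and stromal sum was mostly Pecam1, at 143 CPM against 146. Both sums thus mainly follow 1 gene and say little about those cell types. The part of other cells in the GIMAP values was not tested.

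The 8 genes spanned 123.618 kb of chromosome 6 (48647234 to 48770851, GRCm38, GENCODE M21), 6 on the plus strand and 2, Gimap6 and Gimap3, on the minus strand. From the first to the last base of the cluster the order was Gimap8, Gimap9, Gimap4, Gimap6, Gimap7, Gimap1, Gimap5 and Gimap3. What unites them is a GTP-binding fold whose phosphate-binding loop, the P-loop or Walker A motif, was found in the coding sequence of all 8 members. It occurred 10 times in all, since Gimap8 carries 3 copies where the other members carry 1. The stretches are shown as the family's common sequence, each coding strand 5′ to 3′ from GENCODE M21 transcripts, with the 24 bases of the motif in capitals.
Gimap8 copy 1, chr6:48650250-48650285, plus strand: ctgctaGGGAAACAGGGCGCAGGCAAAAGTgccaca
Gimap8 copy 2, chr6:48656113-48656148, plus strand: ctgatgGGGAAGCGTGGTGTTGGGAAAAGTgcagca
Gimap8 copy 3, chr6:48658740-48658775, plus strand: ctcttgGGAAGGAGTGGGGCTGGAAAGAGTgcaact
Gimap9, chr6:48677517-48677552, plus strand: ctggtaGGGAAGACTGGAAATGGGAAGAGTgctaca
Gimap4, chr6:48690415-48690450, plus strand: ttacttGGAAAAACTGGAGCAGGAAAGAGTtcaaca
Gimap6, chr6:48702744-48702779, minus strand: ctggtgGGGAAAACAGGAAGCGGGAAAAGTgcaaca
Gimap7, chr6:48723518-48723553, plus strand: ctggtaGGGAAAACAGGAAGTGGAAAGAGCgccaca
Gimap1, chr6:48742546-48742581, plus strand: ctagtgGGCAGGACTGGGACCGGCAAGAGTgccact
Gimap5, chr6:48752588-48752623, plus strand: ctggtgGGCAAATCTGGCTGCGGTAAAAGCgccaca
Gimap3, chr6:48765881-48765916, minus strand: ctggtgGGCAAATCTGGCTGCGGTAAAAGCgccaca
Gimap3 and Gimap5 differed at 0 of the 24 motif bases.

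That pair is the exception in the family, because the similarity went well beyond the motif. Gimap3 and Gimap5 encode related proteins held in membranes by their C-terminal ends, and their transcripts were 97.9% identical over 720 aligned bases (megablast). Over the whole coding sequence they were 87.4% identical, while every other pair of members was 46.8 to 64.7% identical, the highest being Gimap7 with Gimap9. The longest run of coding bases shared by Gimap3 and Gimap5 was 140, against at most 17 in any other pair. It is shown in capitals with 30 bases on either side, as coding bases 145 to 344 of Gimap3 and 157 to 356 of Gimap5, since a read from within it can be placed in either gene.
Gimap3, chr6:48765651-48765850, minus strand: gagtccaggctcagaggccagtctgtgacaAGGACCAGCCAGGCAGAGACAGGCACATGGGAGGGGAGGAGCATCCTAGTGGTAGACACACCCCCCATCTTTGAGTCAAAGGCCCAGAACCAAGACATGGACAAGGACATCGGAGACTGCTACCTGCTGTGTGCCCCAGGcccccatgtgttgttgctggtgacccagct
Gimap5, chr6:48752654-48752853, plus strand: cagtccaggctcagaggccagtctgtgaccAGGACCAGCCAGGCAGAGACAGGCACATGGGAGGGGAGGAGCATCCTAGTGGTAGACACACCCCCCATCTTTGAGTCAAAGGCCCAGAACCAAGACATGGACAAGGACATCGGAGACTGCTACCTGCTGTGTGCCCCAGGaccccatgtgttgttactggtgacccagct
The deposited estimates of both genes were not whole numbers in 6 of 6 libraries, as were those of Gimap1. Gimap1 has no near copy in the family but shares exons with another gene, described in the next paragraph. Stretches of Gimap1 also matched transcripts of genes not described here, at 90.2 to 94.4% identity over 198 to 319 aligned bases (megablast). Whether the shared exons or these matches left the Gimap1 estimates not whole was not tested. Gimap8 had such matches too, at 91.7% identity over 360 bases and 91.2% over 114 bases. Gimap7 was not whole in 1 library, and Gimap4, Gimap6, Gimap8 and Gimap9 were whole in every library. Given their shared sequence, the split of counts between Gimap3 and Gimap5 is uncertain, and their sum is given with them.

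A further source of uncertainty is Gm28053, a readthrough gene annotated on the same strand from Gimap7 across Gimap1 into Gimap5. It shares 81 exonic bases with Gimap7, 198 with Gimap1 and 153 with Gimap5, which is 3.48%, 6.44% and 3.69% of their merged exons. Gm28053 itself was low, at 4.54 ± 0.370 CPM in WT against 3.70 ± 0.107 in CD103KO (SD, n = 3). Its values were 4.22, 4.45 and 4.94 CPM in WT against 3.75, 3.58 and 3.78 in CD103KO, without overlap. Over all tested genes, 7.36% showed no overlap with CD103KO lower. Gm28053 did not pass (log2 fold change -0.29, SE 0.10, adjusted p = 0.455, edgeR). Gimap1os, an antisense transcript over 1107 exonic bases of Gimap1, was at 30.2 ± 0.722 and 28.1 ± 2.87 CPM (adjusted p = 0.738, edgeR). The libraries mark strand, but the strand setting of the counting is not given in the sources used here, so reads of Gimap1 and Gimap1os may not be told apart.

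**Figure D1:**
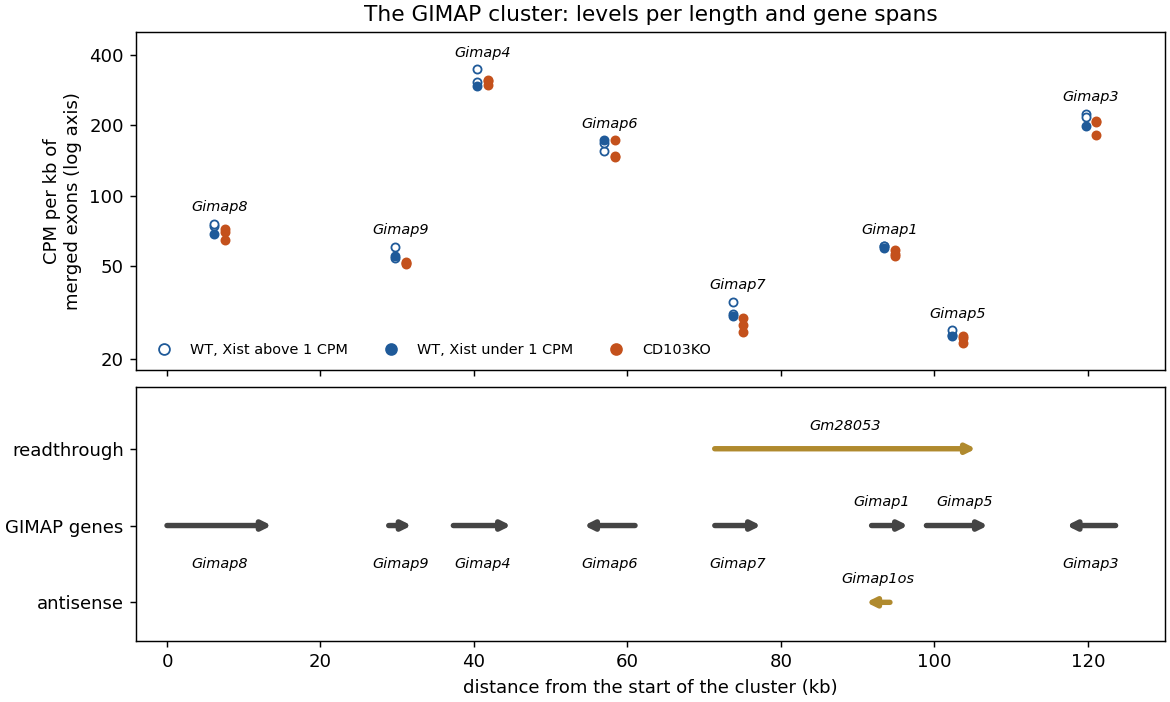
Top: level of each GIMAP gene in CPM per kb of merged exons (log axis), 1 point per library, placed at the gene's midpoint; open points are the WT libraries with Xist above 1 CPM. Bottom: annotated span and direction of each gene against distance in kb from the start of the cluster, with the readthrough gene Gm28053 and the antisense Gimap1os; levels ran from about those of Gimap5 (25.7 in WT) to those of Gimap4 (316), and points of the genotypes lay close together at each gene.

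Per length, the members covered a wide range of levels and all were well above the middle of the transcriptome. On the scale of CPM per kb of merged exons, Gimap4 was highest in WT at 316 ± 28.4 (SD, n = 3), followed by Gimap3 at 214 ± 13.2 and Gimap6 at 166 ± 8.79. Gimap8 was at 73.1 ± 3.73, Gimap1 at 60.5 ± 0.569 and Gimap9 at 56.8 ± 3.35. Gimap7, at 32.4 ± 2.53, and Gimap5, at 25.7 ± 0.824, were the lowest members. The highest member thus stood 12.3-fold above the lowest, while the median of all tested genes was 4.20. In the order of WT levels per length, Gimap4 ranked 153 and Gimap5 1726 among the 13470 tested genes. Neighbours in this order did not overlap across the WT libraries, except Gimap1 and Gimap9. The order depends on the length used: with the longest annotated transcript Gimap1 came above Gimap8 (115 against 85.6), and with the mean of the coding transcripts Gimap6 also came above Gimap3 (335 against 268). Under all 3 lengths Gimap4 was highest and Gimap5 lowest, but the gap narrowed, to 322 against 45.9 with the longest transcript and 517 against 54.7 with the mean of the coding transcripts. Gimap3 and Gimap5, so alike in coding sequence, were at 214 and 25.7 over merged exons, 257 and 45.9 with the longest transcript, and 268 and 54.7 with the coding transcripts.

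For the members best known for lymphocyte survival, neither Gimap5 nor Gimap1 was called. Gimap5, whose product sits in lysosomal membranes and is required for naive T cell maintenance, was at 106, 111 and 104 CPM in WT against 103, 105 and 97.9 in CD103KO. The groups overlapped, with CD103KO replicate 2 above WT replicate 3. Its log2 fold change was -0.07 (SE 0.04, adjusted p = 0.692, edgeR), a ratio of 0.953 with a 95% interval of 0.891 to 1.02. Gimap3, the near copy of Gimap5, was at 579, 561 and 513 CPM in WT against 531, 537 and 470 in CD103KO. WT replicate 3 lay below CD103KO replicates 1 and 2, and CD103KO replicate 3 was the lowest of the 6. The log2 fold change of Gimap3 was -0.10 (SE 0.06, adjusted p = 0.693, edgeR). Summed as 1 feature, Gimap3 and Gimap5 were at 657 ± 35.8 CPM in WT against 614 ± 40.8 in CD103KO, with a ratio of 0.935 (95% interval 0.852 to 1.02, adjusted p = 0.685, edgeR).

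Gimap1, needed for the survival of mature T and B cells, varied least between WT libraries. It was at 187, 187 and 184 CPM in WT against 179.6, 173 and 171 in CD103KO. Every CD103KO library lay below every WT library, a pattern that 7.36% of all tested genes showed in that direction and that Gimap7 and Gimap9 shared. With a coefficient of variation of 0.940% in WT and 2.65% in CD103KO, the log2 fold change of -0.09 had an SE of 0.04, and it did not pass (adjusted p = 0.518, edgeR). The ratio of 0.938 had an interval of 0.885 to 0.994. Summed with Gm28053, the ratio was 0.935 (adjusted p = 0.497, edgeR).

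Gimap7, a GTPase that can stimulate GTP hydrolysis by other members, had the largest difference in the family. Its values were 82.2, 72.6 and 71.5 CPM in WT against 70.0, 65.0 and 60.8 in CD103KO. The groups did not overlap, but WT replicate 3 and CD103KO replicate 1 were only as far apart as 71.5 and 70.0 CPM. With means of 75.4 ± 5.88 CPM in WT against 65.2 ± 4.62 in CD103KO (SD, n = 3), the log2 fold change was -0.21 (SE 0.07). It did not pass over all genes (adjusted p = 0.440, edgeR; 0.269, DESeq2), and by p it ranked 407 among the 13470 tested genes. The ratio was 0.865, with an interval of 0.778 to 0.962, and 0.862 when Gm28053 was added to it (adjusted p = 0.429, edgeR).

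Gimap9, the closest relative of Gimap7 by coding sequence, was at 99.5, 89.0 and 91.2 CPM in WT against 84.2, 84.5 and 86.0 in CD103KO. WT replicate 1 stood above the other two WT libraries, and the CD103KO libraries lay close together below all 3. The means were 93.2 ± 5.51 and 84.9 ± 0.938 CPM (SD, n = 3), with a log2 fold change of -0.13 (SE 0.05) that did not pass (adjusted p = 0.470, edgeR). The ratio was 0.911, with an interval of 0.845 to 0.982.

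The other members, which include the most abundant by CPM, overlapped between the genotypes. Gimap4, linked to T cell death, was at 639, 560 and 541 CPM in WT against 547, 575 and 571 in CD103KO. WT replicate 1 was the highest of the 6 libraries and WT replicate 3 the lowest, so that the CD103KO libraries lay inside the WT range. The difference of -0.04 on the log2 scale (SE 0.06; edgeR adjusted p = 0.881) was the smallest in the family. Without WT replicate 1 it was 0.035, so the direction of Gimap4 rests on that library. Gimap6, which binds the autophagy protein GABARAPL2, was at 546, 589 and 605 CPM in WT against 604, 516 and 512 in CD103KO. Here WT replicate 3 and CD103KO replicate 1 were the high libraries, unlike for the rest of the family. The log2 fold change of Gimap6 was -0.09 (SE 0.07, adjusted p = 0.736, edgeR). Gimap8, the large member with 3 P-loops, was at 275, 281 and 255 CPM in WT against 258, 266 and 241 in CD103KO. As for Gimap3, WT replicate 3 was below CD103KO replicates 1 and 2, and the log2 fold change was -0.09 (SE 0.05, adjusted p = 0.689, edgeR).

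**Figure D2:**
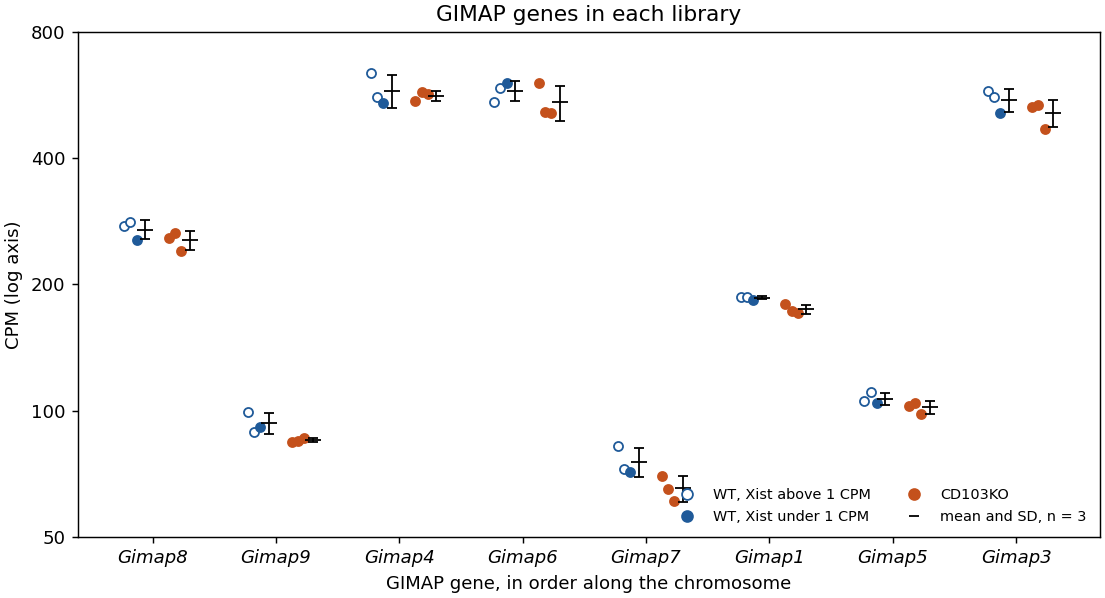
CPM (log axis) of the 8 GIMAP genes in order along the chromosome, 1 point per library (blue WT, orange CD103KO; open points are WT libraries with Xist above 1 CPM) with the mean and SD of each group (n = 3). The groups overlap for 5 of the 8 genes, and for Gimap9, Gimap7 and Gimap1 the CD103KO points lie just below the WT points.

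As a group, the members leaned the same way by a small amount. All 8 log2 fold changes were below 0, with a median of -0.09, where 51% of all tested genes were below 0 and their median was -0.0025. The members lie next to each other and share libraries, so they are not 8 independent observations. Summed over the family, the level was 2443 ± 74.7 CPM in WT against 2302 ± 85.9 in CD103KO (SD, n = 3). By library it was 2513, 2451 and 2365 CPM in WT against 2377, 2321 and 2209 in CD103KO. WT replicate 3 was below CD103KO replicate 1, so the groups overlapped. The family took 0.220% to 0.253% of all counts. CD103KO replicate 3 held the lowest value of 6 of the 8 members, and WT replicate 1 the highest of 4. Without CD103KO replicate 3 the median log2 fold change of the 8 was -0.05. In bulk RNA, fewer cells with these transcripts and less of them per cell cannot be told apart.

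The mean makeup of the family was close to the same in both genotypes, but it varied between libraries. Over the libraries Gimap6 gave 21.7 to 25.6% of the family's CPM and Gimap4 gave 22.9 to 25.9%. Gimap4 was the largest part in WT replicate 1, and Gimap6 in WT replicate 3. Gimap6, Gimap4 and Gimap3 gave 23.8 ± 1.95%, 23.7 ± 1.48% and 22.5 ± 0.736% of the family's CPM in WT and 23.6 ± 1.64%, 24.5 ± 1.43% and 22.3 ± 0.947% in CD103KO (SD, n = 3). Gimap7 gave the least, 3.09 ± 0.163% in WT and 2.83 ± 0.100% in CD103KO.

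**Figure D3:**
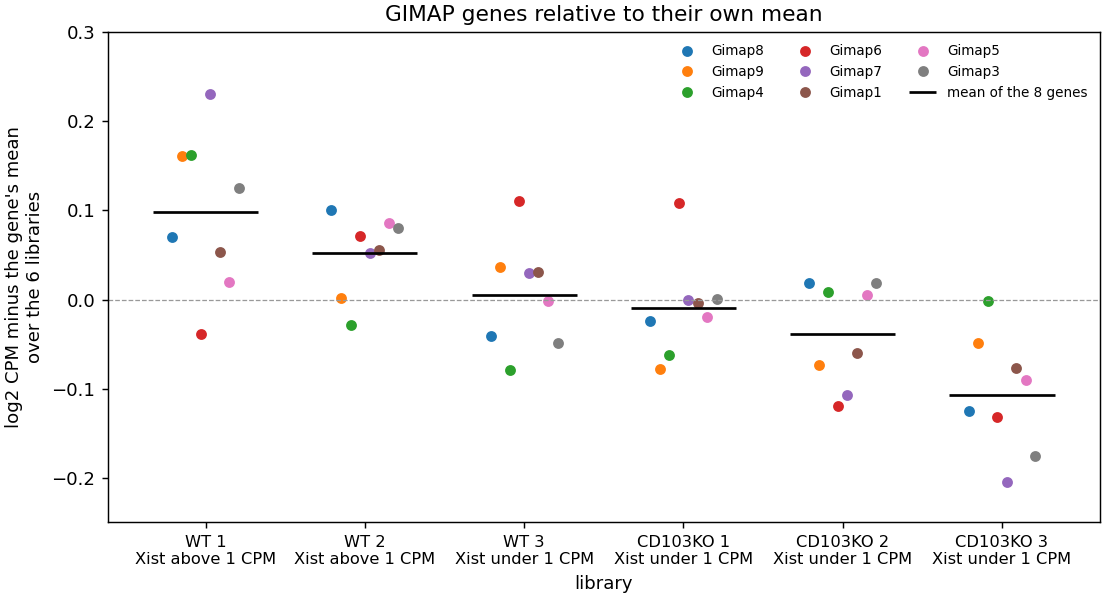
Log2 CPM of each GIMAP gene minus its own mean over the 6 libraries, by library, with the mean of the 8 genes as a black line. The means run from 0.10 in WT replicate 1 to -0.11 in CD103KO replicate 3, and WT replicate 3 (0.0046) lies near CD103KO replicate 1 (-0.0099).

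WT replicates 1 and 2 stood apart by Xist, and they also had the highest family sums. As 1 of the alternatives listed below, the comparison was fitted with a term for Xist reads. The CD103KO libraries were then set against only WT replicate 3. Gimap3 then had a log2 fold change of -5.1e-05 (SE 0.08) and Gimap8 of -0.0011 (SE 0.06). Gimap4 changed sign, to 0.06 (SE 0.07). Gimap7 went to -0.13 (SE 0.09), Gimap9 to -0.10 (SE 0.07), Gimap1 to -0.08 (SE 0.05) and Gimap5 to -0.03 (SE 0.06). Gimap6, highest in WT replicate 3, moved the other way, to -0.15 (SE 0.09). The median of the 8 was -0.05, 7 were below 0, and again none was called (smallest adjusted p = 0.746, edgeR). Sex, as read from Xist and Ddx3y, and genotype cannot be told apart beyond that 1 WT library.

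**Figure D4:**
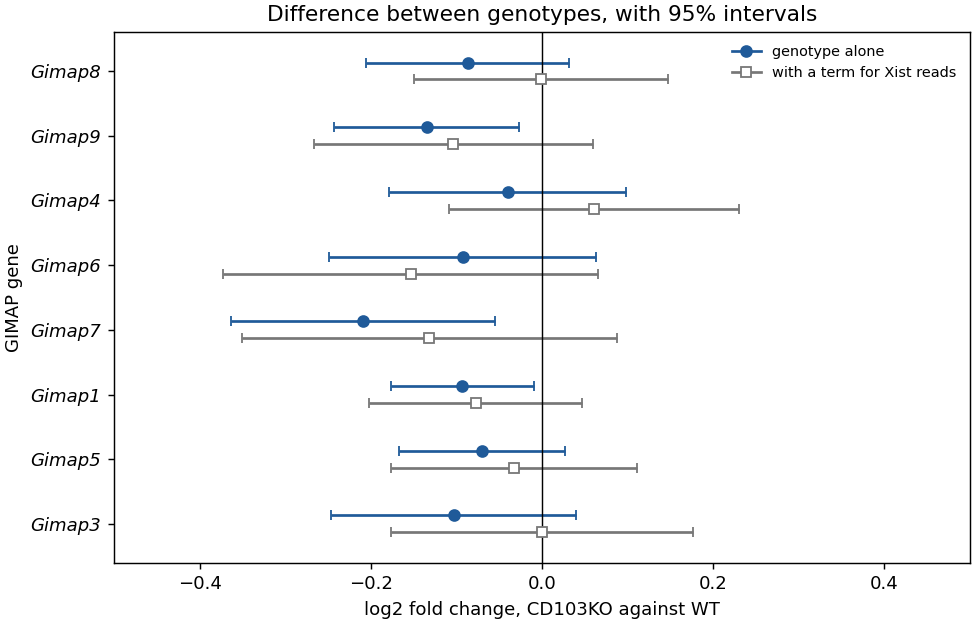
Log2 fold change of each GIMAP gene between CD103KO and WT with its 95% interval, from the fit on genotype alone (blue) and with a term for Xist reads (grey squares). On genotype alone, all 8 values are below 0 and the intervals of Gimap9, Gimap7 and Gimap1 end below 0, before adjustment over all genes; with the term, all 8 intervals cross 0.

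Genes whose products are tied to GIMAP proteins gave no call either, where only 0.223% of all tested genes were called. Lists this short would thus seldom hold a call. At an unadjusted p under 0.05, edgeR gave 8.73% of all tested genes in either direction. Among ATG8 family genes, the autophagy proteins to which the partner of Gimap6 belongs, 0 of 5 were called and 0 had an unadjusted p under 0.05 (edgeR). Gabarapl2 itself was at 62.5 CPM in WT against 60.4 in CD103KO, and Gabarapl1, of smallest p, differed by -0.12 on the log2 scale (adjusted p = 0.728, edgeR). Of the BCL2 family, which sets the threshold for cell death, 12 of 13 genes were tested and 0 were called or had an unadjusted p under 0.05. Bmf, a pro-death member, had the smallest p, at 9.66 CPM in WT against 14.1 in CD103KO (log2 fold change 0.55, adjusted p = 0.585, edgeR). For IL-7 receptor, GSK3 and calcium genes, 0 of 12 were called and 2 were lower at an unadjusted p under 0.05, against 4.2% of all tested genes in that direction. The smallest p was that of Il7r, the receptor chain for the survival cytokine IL-7, at 304 CPM in WT against 281 in CD103KO (log2 fold change -0.11, adjusted p = 0.455, edgeR). T cell transcription factors gave 0 calls in 14 and 1 gene lower at an unadjusted p under 0.05, Klf2, a factor for homing and quiescence, at 347 and 314 CPM (adjusted p = 0.497, edgeR). The medians of the 4 lists were -0.02, 0.03, -0.0055 and -0.05. DESeq2 called 0 in each, against 0.822% of the genes it gave an adjusted p.

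Neighbours of the cluster were also not called, where 0.223% of all tested genes were called by edgeR. Of 52 other genes within 500 kb, 18 were tested, 0 were called by edgeR or DESeq2, and 3 had an unadjusted p under 0.05, 2 higher and 1 lower, against 8.73% of all tested genes in either direction. Their median log2 fold change was -0.07, and 13 of the 18 were below 0, against 51% of all tested genes. Those 13 include Gm28053 (-0.29) and Gimap1os (-0.10), which share exonic bases with members and so may not be separate from them. Igf2bp3, an RNA-binding protein gene and the neighbour of smallest p, was at 0.783 CPM in WT against 1.55 in CD103KO (log2 fold change 0.99, adjusted p = 0.368, edgeR). The lower gene was Gm28053.

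The pattern of the family over the 6 libraries was also searched for in 10759 other tested genes with a mean of at least 1 CPM. Over so few libraries, 181 genes had a Pearson correlation above 0.9 with the mean of the centred GIMAP values and 167 had one below -0.9. The most alike were Kantr (0.990), Galnt4 (0.986), Prx (0.985), Gm17690 (0.980) and Ube2d-ps (0.979). Most opposite were Sptbn1 (-0.986), Zyx (-0.986) and Pcsk7 (-0.984). These values are a description of 6 libraries, which all these genes share. Sptbn1, a spectrin of the membrane skeleton, went from 703, 717 and 732 CPM in WT to 737, 762 and 788 CPM in CD103KO and was not called (adjusted p = 0.582, edgeR).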

How the data were processed

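The deposited table holds the authors' expected counts by gene, not normalized, with 1 column for each library; since 6.48% were not whole, they were rounded before testing. RSEM, STAR 2.7.0f, cutadapt 1.18 and bcl2fastq 2.20 are named, with the builds GRCm38 and mm10, in the submitters' processing notes. Not given in the sources used here are the annotation, the strand setting and how RSEM was set for reads with several alignments. All 55450 gene identifiers matched GENCODE M21, from which coordinates, exons and transcripts come.

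CD103KO was compared with WT in edgeR 4.0.16 (R 4.3.3): filterByExpr (minimum count 10), TMM factors, quasi-likelihood F test on group alone, Benjamini-Hochberg adjustment at 0.05 over 13470 genes. The standard error is the log2 fold change divided by the square root of F, and intervals use the test's degrees of freedom. The script was tested on simulated data with changes set in genes of all levels. It recovered 34% of 1.25-fold changes and 96% of 4-fold changes, and 11 of 150 calls were false. Small changes were thus often missed. The members' fitted ratios, 0.865 to 0.973, were smaller changes than any that were set, so recovery at that size was not measured. Within each group, pairs of libraries did not match within sampling noise (chi-square over degrees of freedom 12.7 to 26.4).

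Megablast (BLAST+ 2.17.0) hits were kept at 90% identity over 100 bases; coding sequences, 1 transcript per gene with the longest coding sequence, were aligned with MAFFT 7.526. Plots used matplotlib 3.10.9.

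The alternatives tried were no filter, upper-quartile or RLE factors, DESeq2 1.42.0, limma-voom (limma 3.58.1), unrounded counts, a replicate block, a term for libraries with Xist above 1 CPM, each library left out and other lengths. Added after seeing the data were only the libraries without Xist reads, and counts summed with Gimap5 or Gm28053.

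Genes named are the members, overlapping genes, and called genes or else the gene of smallest p in each list and among neighbours. The rule also takes the 5 most and 3 least correlated genes, and Itgae, Xist and Ddx3y as checks of labels. Gabarapl2, Pf4, Gp9, Eomes and Pecam1 were named outside this rule. The members and lists were chosen with earlier results of these data known.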

Additional observations from a re-analysis of the deposited data

How the results depend on the processing

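None of the 8 genes was called under any of 15 alternatives, and 116 of 120 log2 fold changes were below 0 (-0.26 to 0.06); the smallest adjusted p was 0.169, for Gimap7. Gimap4 turned to 0.061 with a term for Xist reads and, over the fits with 1 library left out, ranged from -0.088 to 0.035, the last without WT replicate 1. With only the libraries without Xist reads, an alternative chosen after seeing the data, Gimap4 was at 0.061 and Gimap3 at 0.00044; WT replicate 3 is then the only WT library and is assumed to vary like the CD103KO libraries. The median of the 8 ranged from -0.12 without CD103KO replicate 1 to -0.05 without CD103KO replicate 3, and was also -0.05 with the Xist term and with only the libraries without Xist reads.

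Over all genes, edgeR called 30, but 112 with no filter, 15 with the Xist term and 13 with only the libraries without Xist reads; DESeq2 called 128. Leaving out 1 library gave 19 to 59 calls: the count was 52 when WT replicate 3 was dropped, 59 for CD103KO replicate 1 and 19 for CD103KO replicate 2. The cause was not tested.

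With the replicate number as a block, 24 genes and none of the 8 were called, and the median of the 8 was -0.09. Over all tested genes, same-numbered libraries did not deviate together (correlations -0.20, -0.0053 and -0.030). The family sum, though, fell from replicate 1 to replicate 3 in both groups. It was 2513, 2451 and 2365 CPM in WT and 2377, 2321 and 2209 CPM in CD103KO. Whether the replicate number marks a pairing or a batch was not tested. Each of the 8 genes had 4428 counts or more in every library. How far depth or the spread between libraries set the width of the intervals was not tested.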
